A study of Mus musculus with 2 samples.

Results

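The genes described here are the ion and bicarbonate solute carriers of the mouse lens, chosen by symbol: every gene whose single platform symbol begins with Slc4a, Slc9a, Slc12a, Slc13a, Slc17a, Slc20a, Slc26a or Slc34a and a digit. The rule found 54 of the 18194 genes named on the array, with 108 probe sets among them. Of these, 51 encode membrane carriers, and 3 (Slc4a1ap, Slc9a3r1 and Slc9a3r2) share the symbol but encode proteins that bind carriers. The compared groups were lenses of wild-type C57/BL6 mice at postnatal day 60 (P60, young adult) and at postnatal day 7 (P7, fast growth). Lenses were pooled by age and each pool was run on 1 array. There were thus no replicates and no test between the ages was possible. The labels state neither how many animals a pool held nor their sex.

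The lens has no blood supply and lives on solutes exchanged with the aqueous and vitreous humours. Its epithelial cells and fibres make lactic acid, and sodium-proton exchangers and bicarbonate transporters move acid and base across their membranes. Cation-chloride cotransporters carry chloride together with sodium, potassium or both. They are known as regulators of cell volume, on which the transparency of the fibre mass depends. Anion exchangers of the Slc26 family swap chloride, bicarbonate, iodide, sulfate or oxalate, while the Slc20 and Slc34 proteins bring phosphate into cells with sodium.

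A probe set is a group of short probes for 1 transcript, and its deposited signal is a linear intensity in arbitrary units. The brightest probe set of each gene over both arrays was used. Signals under 103.9, the median of all values, were treated as having no order and raised to that floor. A gene with a signal above the floor on at least 1 array counts as measured, and a fold against a signal under the floor is a lower bound, written "at least". Signals of different probe sets are not comparable as levels of different genes. In a pooled tissue, fewer cells of a type and less RNA per cell cannot be told apart. Lens fibre transcripts were present at both ages: all 8 fibre markers found on the array, Cryaa, Crybb2, Crygs, Mip, Lim2, Bfsp1, Bfsp2 and Gja3, were above the floor on both arrays. Their brightest probe sets were within 2-fold, and the other Gja3 probe set was at -1.30.

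Of the 54 genes, 36 were measured, 23 of them on both arrays, 8 at P60 only and 5 at P7 only. At P60, 9 of the 36 (25%) were higher by 2-fold or more, and 2 (5.56%) were lower by as much. Among all 13029 measured genes 11.5% were higher and 9.44% lower by the same rule. The median log2 ratio, P60 over P7, was 0.14 for the 36 genes and 0.02 for all measured genes. The higher genes were Slc26a4, Slc12a2, Slc26a7, Slc12a9, Slc4a5, Slc13a5, Slc4a3, Slc4a4 and Slc12a4, and the lower ones Slc20a2 and Slc9a3r2. Over the 23 genes above the floor on both arrays the counts were 6 higher and 2 lower, against 11.8% and 8.38% of all genes in that class. The other 13, above the floor on 1 array, could differ only towards that array. Among them 3 were higher and none was lower, against 9.88% and 14.1% of all such genes. Among the 211 other measured solute carrier genes, 36 (17.1%) were higher and 17 (8.06%) lower.

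**Figure D1:**
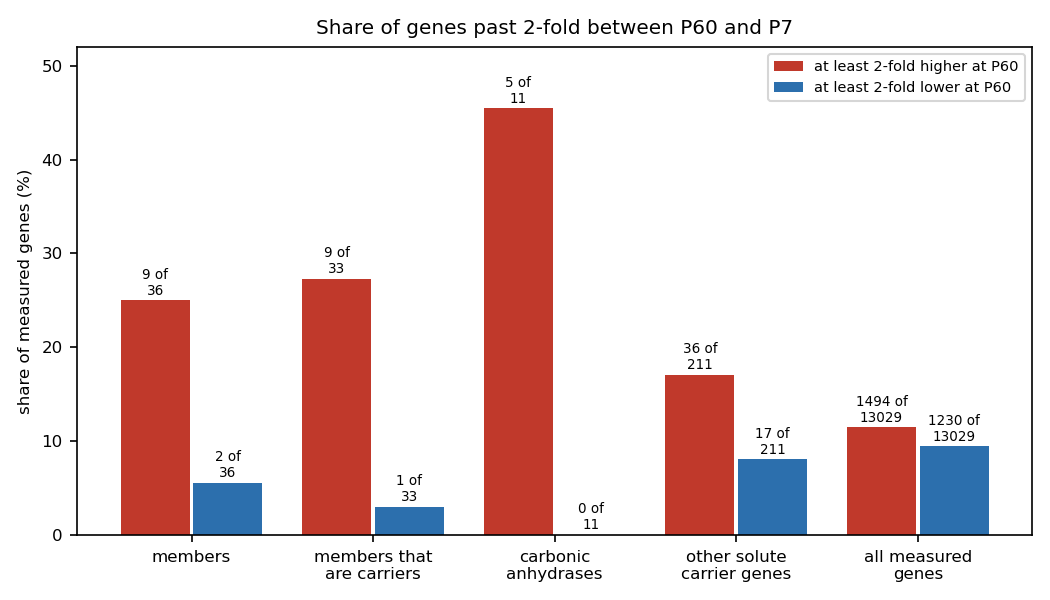
Share of measured genes, in percent, that were at least 2-fold higher or lower at P60 than at P7, for the 36 measured members, the 33 of them that are carriers, the carbonic anhydrases, the other solute carrier genes and all measured genes. Counts stand above the bars; the members have 9 higher and 2 lower.

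The only error estimate in these data is how far the log2 ratios of 1 gene's probe sets spread, with a pooled SD of 0.58 over 4239 genes. Variation among animals, pools or hybridisations is not in it. It gives no error for a difference between the ages. Slc12a4 (1.05) and Slc9a3r2 (-1.01) were only just past the 2-fold limit. Slc4a2 (0.93), Slc13a2 (0.92, a bound) and Slc17a1 (-0.91, a bound) fell just short of it.

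**Figure D2:**
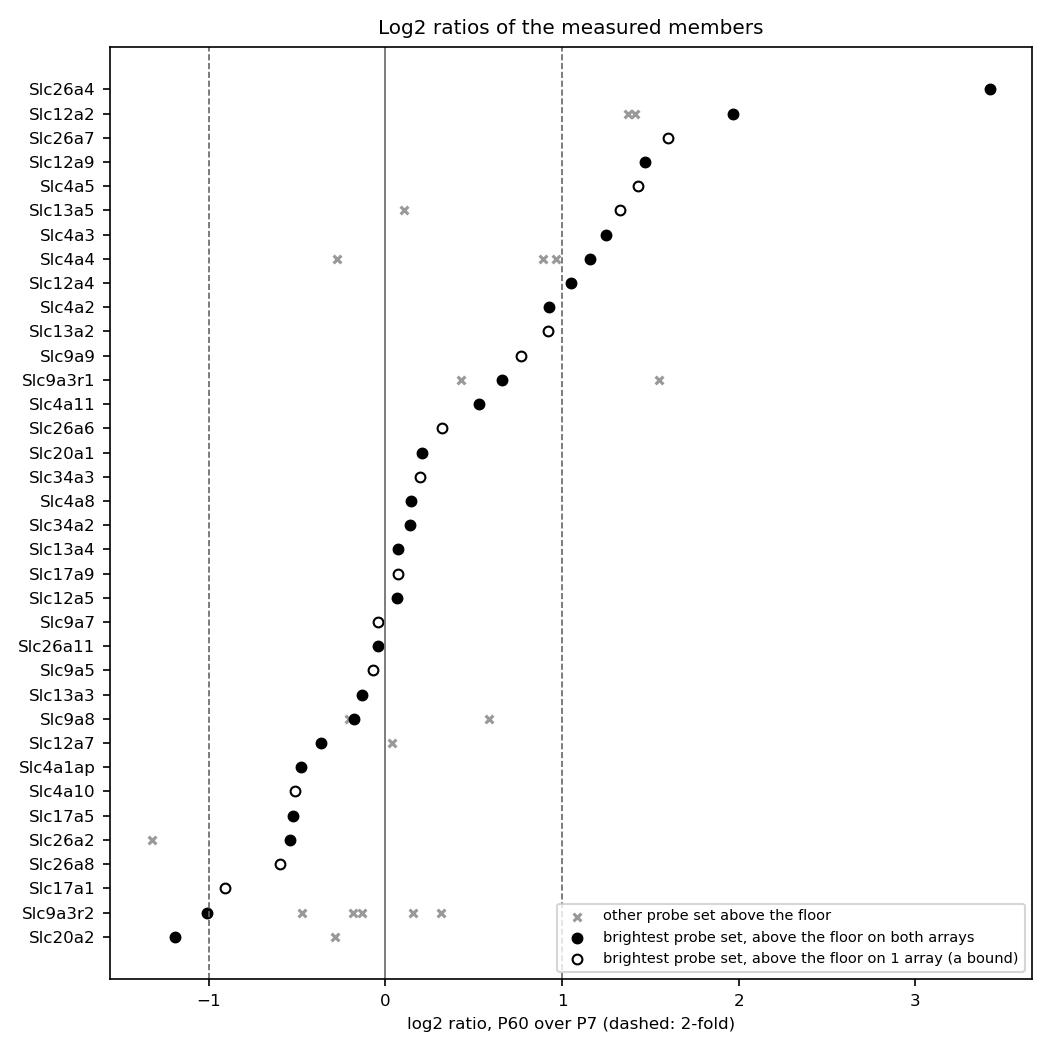
Log2 ratio, P60 over P7, of the 36 measured members in order. Filled points were above the floor on both arrays, and open points on 1 array and so are bounds. Crosses are other probe sets of the gene above the floor on at least 1 array, and those under it on both are not drawn. Dashed lines mark 2-fold. Slc26a4 stands at 3.42, Slc12a2 at 1.97 with its other probe sets also past 2-fold, and Slc20a2 at -1.19.

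The 5′ sequences of the 3 higher genes with the largest ratios, among those with 1 start in the promoter table, are shown because these members were higher together at P60. They run from 250 bases before to 50 after the annotated start and come from RefSeq (GRCm38.p6). Capitals mark matches to any of 4 short motifs on either strand: the TATA box with the letters TATAAA, the box named after its letters CCAAT, the GC box GGGCGG bound by Sp factors, and the E-box spelled CACGTG.
Slc26a4 (chr12:31559935-31560234, minus strand): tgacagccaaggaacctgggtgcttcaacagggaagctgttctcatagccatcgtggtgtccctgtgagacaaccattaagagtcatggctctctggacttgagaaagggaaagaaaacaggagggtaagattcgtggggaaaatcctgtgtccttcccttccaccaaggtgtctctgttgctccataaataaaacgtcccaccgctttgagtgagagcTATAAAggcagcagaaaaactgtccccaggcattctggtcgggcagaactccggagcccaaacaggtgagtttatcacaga
Slc12a9 (chr5:137333533-137333832, minus strand): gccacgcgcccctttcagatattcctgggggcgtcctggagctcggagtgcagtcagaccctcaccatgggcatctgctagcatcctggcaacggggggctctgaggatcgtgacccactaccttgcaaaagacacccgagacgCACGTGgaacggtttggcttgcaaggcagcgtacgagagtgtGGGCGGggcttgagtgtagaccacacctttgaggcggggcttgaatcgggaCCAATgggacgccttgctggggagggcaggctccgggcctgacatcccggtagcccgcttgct
Slc4a5 (chr6:83237125-83237424, plus strand): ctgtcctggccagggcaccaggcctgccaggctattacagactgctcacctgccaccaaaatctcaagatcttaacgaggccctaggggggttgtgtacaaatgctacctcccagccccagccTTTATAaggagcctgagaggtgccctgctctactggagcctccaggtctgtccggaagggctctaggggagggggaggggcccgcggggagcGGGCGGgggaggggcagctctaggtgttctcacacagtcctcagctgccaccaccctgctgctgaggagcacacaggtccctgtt

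The Slc26a4 window held TATAAA 31 bases before the start and none of the other motifs. The Slc12a9 window held an E-box, a GC box and a CCAAT box, at 106, 64 and 13 bases before the start. The Slc4a5 window held the TATAAA motif in reverse, 127 bases before the start, and a GC box at 35. No motif of the 4 was in all 3 windows. Of the 9 higher genes, 7 matched the promoter table, with 9 windows. GGGCGG was in 7 of these 9 windows (77.8%), in 22 of the 38 windows of measured members (57.9%) and in 35.7% of all 32851 windows. TATAAA was in 2 of the 9 windows, in 13.2% of the members' windows and in 13.6% of all windows. CCAAT was in 3 of the 9 windows, in 34.2% of the members' windows and in 37.4% of all. CACGTG was in 1 of the 9 windows, in 6 of the members' 38 (15.8%) and in 7.15% of all. All 32851 windows cover 27025 genes, measured here or not, and a share over measured genes alone was not computed. The motif matches describe the letters in the windows and are not evidence of binding.

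Bicarbonate transporters of the Slc4 family had 9 genes by the rule, of which 7 were measured. At P60 3 of the 7 passed 2-fold upward, 4 were within it and none passed downward, with a median log2 ratio of 0.93. Of all measured genes 11.5% passed upward and 9.44% downward, and a family of 7 gives only a rough share. Slc4a4, the electrogenic sodium-bicarbonate cotransporter NBCe1, had a signal of 1038 at P60 and 465 at P7, which is 2.23-fold higher. Its other 3 probe sets above the floor had log2 ratios from -0.28 to 0.96, so none of them reached 2-fold and one lay on the other side of 0. Slc4a5, the related cotransporter NBCe2, read 279 at P60 and 98.8, under the floor, at P7, at least 2.69-fold higher. Slc4a3, the chloride-bicarbonate exchanger AE3, had 291 at P60 and 123 at P7, 2.38-fold higher, with a P7 signal close to the floor.

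The exchanger AE2, encoded by Slc4a2, was just short of the limit, with 920.5 at P60 and 484 at P7 (1.90-fold). Slc4a11, a transporter best known from the corneal endothelium, read 190 at P60 and 131 at P7, a log2 ratio of 0.53. Slc4a8, a sodium-driven chloride-bicarbonate exchanger, had 172 at P60 and 156 at P7. None of these reached 2-fold. Slc4a10, a neuronal sodium-bicarbonate transporter, was the only measured Slc4 gene on the lower side, with 8.18 at P60, under the floor, and 148 at P7, at least 1.43-fold lower. The erythrocyte exchanger Slc4a1 (band 3) and the kidney gene Slc4a9 were under the floor on both arrays.

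Cation-chloride cotransporters had a family median of 1.05, with 3 of 5 measured genes past 2-fold upward and none downward. These shares come from only 5 genes, beside 11.5% upward and 9.44% downward among all measured genes. Slc12a2 encodes NKCC1, which loads cells with sodium, potassium and chloride. Its signal was 10186 at P60 and 2607 at P7, 3.91-fold higher, and its other 2 probe sets had log2 ratios of 1.37 and 1.41. All 3 probe sets of Slc12a2 thus passed 2-fold, and 2.21% of all measured genes had a higher ratio. Slc12a9, a family member known to interact with the other cotransporters, read 737 at P60 and 267 at P7, 2.76-fold higher on its 1 probe set above the floor.

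Of the potassium-chloride cotransporters, which let chloride leave the cell, 1 of 3 passed 2-fold. Slc12a4 (KCC1) had 399 at P60 and 193 at P7, 2.07-fold higher, a call lost under 4 of 11 alternative settings. Slc12a7 (KCC4) had 245 at P60 and 315 at P7, a log2 ratio of -0.37, with its other probe set at 0.04. Slc12a5 (KCC2), the neuronal cotransporter, read 198 at P60 and 189 at P7. The difference between these 3 genes was not tested. The kidney cotransporters Slc12a1 and Slc12a3 and the gene Slc12a8 were under the floor on both arrays.

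**Figure D3:**
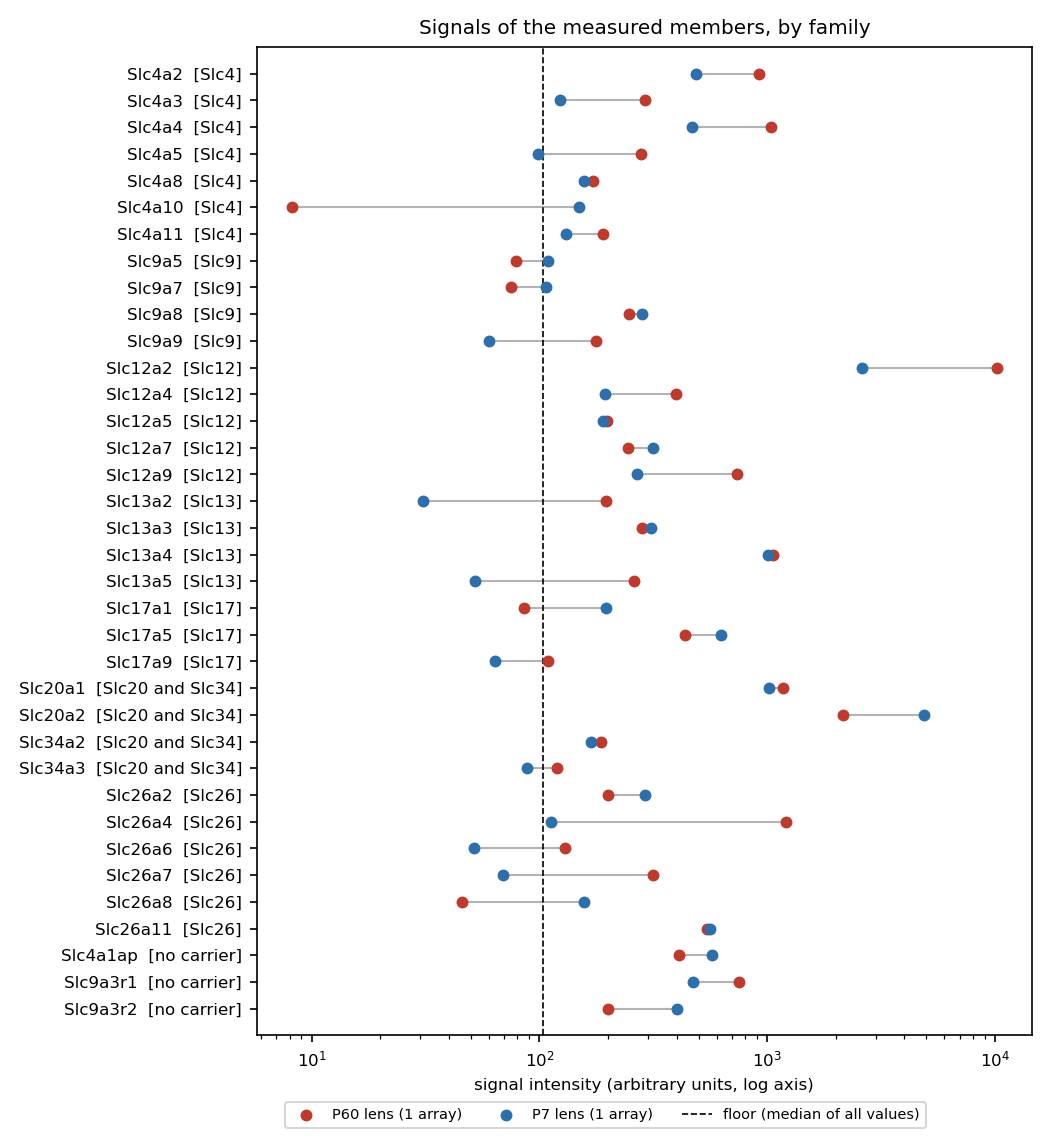
Signal intensity (arbitrary units, log axis) of the 36 measured members by family, with 1 point for the P60 array and 1 for the P7 array; the dashed line is the floor of 103.9. Slc12a2 reads 10186 at P60 and 2607 at P7, and Slc26a4 reads 1204 at P60 and 112 at P7.

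Anion exchangers of the Slc26 family held the largest ratio of all members. Slc26a4 encodes pendrin, an exchanger of chloride, iodide and bicarbonate known from the inner ear, thyroid and kidney. Its signal was 1204 at P60 and 112 at P7, 10.7-fold higher, and 0.315% of all measured genes had a higher ratio. The P7 signal lay just above the floor and below 123, the 95th percentile of 86 probe sets for odour and taste receptors, so the fold is close to a bound. It rests on 1 probe set. Slc26a7, a chloride-bicarbonate exchanger of stomach and kidney, had 314 at P60 and 68.8, under the floor, at P7, at least 3.02-fold higher. Pendrin and Slc26a7 were both near or under the floor at P7.

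The other measured Slc26 genes stayed within 2-fold. Slc26a6, an exchanger of chloride, bicarbonate and oxalate, read 130 at P60 and 51.4 at P7, at least 1.25-fold higher. Slc26a2, a sulfate transporter needed in cartilage, was 1.46-fold lower at P60 than at P7, where it read 291, and a dimmer probe set gave a log2 ratio of -1.32. Slc26a11, a sulfate and chloride transporter, was nearly level, with 546 at P60 and 563 at P7. Slc26a8, known from testis, had 45.8 at P60, under the floor, and 157 at P7. Of the 6 measured Slc26 genes, 2 were thus higher, 4 within 2-fold and none lower. Of all measured genes 11.5% were higher and 9.44% lower. Slc26a1, Slc26a3, Slc26a5 and Slc26a10 were under the floor on both arrays.

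Sodium-proton exchangers gave few signals above the floor. Of 7 Slc9 carrier genes 4 were measured, and none reached 2-fold. Slc9a8, an exchanger of the Golgi and endosomes, was the only one above the floor on both arrays, with 248 at P60 and 281 at P7 and its other probe sets from -0.20 to 0.58. Slc9a9, an endosomal exchanger, read 177 at P60 and 59.9 at P7, at least 1.70-fold higher. Slc9a5 (79.0 at P60, 109 at P7) and Slc9a7 (74.8 at P60, 107 at P7) lay around the floor. Slc9a2, Slc9a3 and Slc9a4, exchangers of epithelial surfaces, were under the floor on both arrays.

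Of 4 measured phosphate cotransporters 1 was lower and none higher, against 9.44% and 11.5% of all measured genes. Slc20a2, which encodes the sodium-phosphate cotransporter PiT2, had a signal of 2146 at P60 and 4897 at P7, 2.28-fold lower. Its other probe set had a log2 ratio of -0.29, the same side but within 2-fold. Slc20a1, which encodes the related PiT1, read 1173 at P60 and 1015 at P7, a log2 ratio of 0.21. The pair of PiT genes thus had ratios on opposite sides of 0. Slc34a2 had 186 at P60 and 168 at P7, Slc34a3 119 at P60 and 88.3 at P7, and the renal cotransporter Slc34a1 was under the floor on both arrays.

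Carriers of sulfate, carboxylates and organic anions were mostly within 2-fold. Slc13a5, a sodium-coupled citrate transporter, read 261 at P60 and 52.3, under the floor, at P7, at least 2.51-fold higher, but its other probe set gave a log2 ratio of 0.10. Slc13a2, a dicarboxylate transporter of kidney and gut, had 197 at P60 and 30.9 at P7, at least 1.89-fold higher. Both genes were above the floor at P60 only. The sulfate transporter Slc13a4 read 1064 at P60 and 1012 at P7, and the dicarboxylate transporter Slc13a3 282 at P60 and 309 at P7. These were level, but the Slc13a3 value rests on the only 1 of its 4 probe sets above the floor. Slc13a1 was under the floor on both arrays.

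In the Slc17 family, Slc17a5 encodes sialin, which exports sialic acid from lysosomes, and read 435 at P60 and 624 at P7, a log2 ratio of -0.52. Slc17a1, a urate and phosphate carrier of kidney, had 85.3 at P60, under the floor, and 195 at P7, at least 1.88-fold lower. Slc17a9, a vesicular nucleotide transporter, was near the floor, with 109 at P60 and 63.8 at P7. No Slc17 gene reached 2-fold. The vesicular glutamate transporters of neurons, Slc17a6 and Slc17a7, and the genes Slc17a2 and Slc17a3 were under the floor on both arrays.

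Of the 3 binding proteins 1 passed 2-fold, downward. Slc9a3r1 encodes the scaffold NHERF1, which anchors exchangers to the actin cytoskeleton through ezrin, and read 751 at P60 and 474 at P7, a log2 ratio of 0.66. Its other probe sets gave 0.43 and 1.55, all on the higher side. Slc9a3r2, which encodes NHERF2, had 199 at P60 and 401 at P7, 2.01-fold lower. Its other 5 probe sets ranged from -0.47 to 0.31, so its call rests on the brightest of 6. Slc4a1ap, which encodes the band 3 adaptor kanadaptin, had 410 at P60 and 570 at P7. Without these genes, 9 of 33 carriers (27.3%) were higher and 1 (3.03%) lower, against 11.5% and 9.44% of all measured genes.

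**Figure D4:**
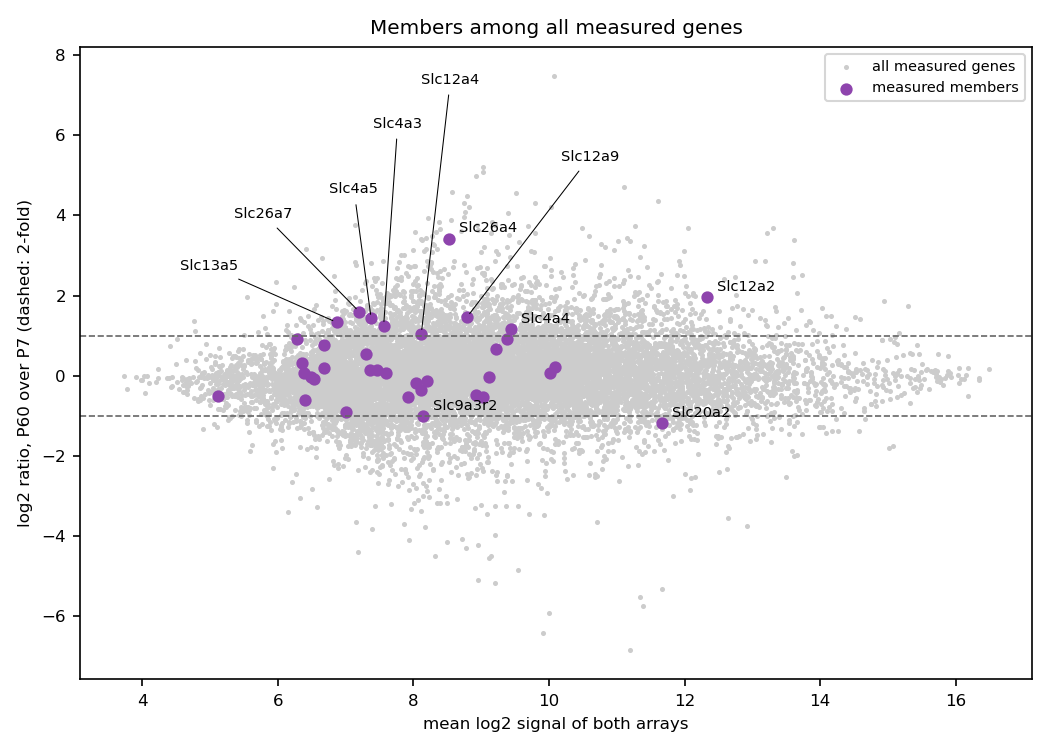
Log2 ratio, P60 over P7, against the mean log2 signal of both arrays for all 13029 measured genes (grey) and the 36 measured members (purple); dashed lines mark 2-fold and the 11 members past it are named. Slc12a2 and Slc20a2 are the brightest members past 2-fold, and Slc26a4 has the highest ratio.

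Carbonic anhydrases, which interconvert carbon dioxide and bicarbonate and so supply the bicarbonate transporters, were taken as a further list. Of 16 genes 11 were measured; 5 passed 2-fold upward at P60 and none downward, against 11.5% and 9.44% of all measured genes, with a median log2 ratio of 0.23. Car2, the main cytosolic enzyme, had 5035 at P60 and 960 at P7, 5.25-fold higher. Car14, a membrane enzyme, had 4326 at P60 and 1616 at P7, 2.68-fold higher. Car9, a membrane enzyme induced by hypoxia, read 741 at P60 and 26.7, under the floor, at P7, at least 7.13-fold higher. These are active enzymes, whereas Car8 and Car11 encode related proteins without the enzyme activity. Car8 had 1796 at P60 and 698 at P7, 2.57-fold higher with other probe sets from 0.21 to 1.78, and Car11 465 at P60 and 142 at P7, 3.28-fold higher. The lowest ratios were those of Car15 (20.9 at P60, 145 at P7) and Car3 (74.0 at P60, 110.0 at P7), both under the floor at P60.

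Of 20 measured regulators of the carriers, by brightest probe set, 2 passed 2-fold upward and none downward. Of all measured genes 11.5% and 9.44% did so, and the regulators had a median log2 ratio of 0.09. The share of higher regulators was thus near that of all genes. Dimmer probe sets of some regulators did pass 2-fold downward, with the lowest of Cul3 at -1.83 and of Rdx at -1.80. Ahcyl2, a relative of the NBCe1 activator IRBIT, had 6230 at P60 and 1554 at P7, 4.01-fold higher, although its other probe sets gave 0.41 and 0.66. The IRBIT gene itself, Ahcyl1, read 4218 at P60 and 2849 at P7, a log2 ratio of 0.57 with its other probe sets on both sides of 0. Sgk1, a kinase that controls many ion transporters, had 3039 at P60 and 1167 at P7, 2.60-fold higher. Of the kinases that act on cation-chloride cotransporters, Stk39 (SPAK) had 2548 at P60 and 4239 at P7, a log2 ratio of -0.73 with its other probe set past 2-fold at -1.01, and its relative Oxsr1 809 at P60 and 523 at P7, a ratio of 0.63. The kinase Wnk1, which activates both of these, was nearly level on its brightest probe set (7173 at P60, 6280 at P7). Its other probe sets gave -0.47 and -1.46, the latter past 2-fold downward. After Stk39 the lowest ratio of the list was that of Ppp1ca, a phosphatase subunit, with 5880 at P60 and 9729 at P7.

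Of 4 measured genes of phosphate and pyrophosphate handling, 1 passed 2-fold upward and none downward, against 11.5% and 9.44% of all measured genes. Ank, which encodes a membrane protein that raises extracellular pyrophosphate, had 6538 at P60 and 2932 at P7, 2.23-fold higher. Xpr1, the phosphate exporter, read 1752 at P60 and 1363 at P7, a log2 ratio of 0.36 with its other probe sets on both sides of 0. Alpl (0.04) and Fgf23 (-0.09) were level, and Fgf23 lay around the floor.

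**Figure D5:**
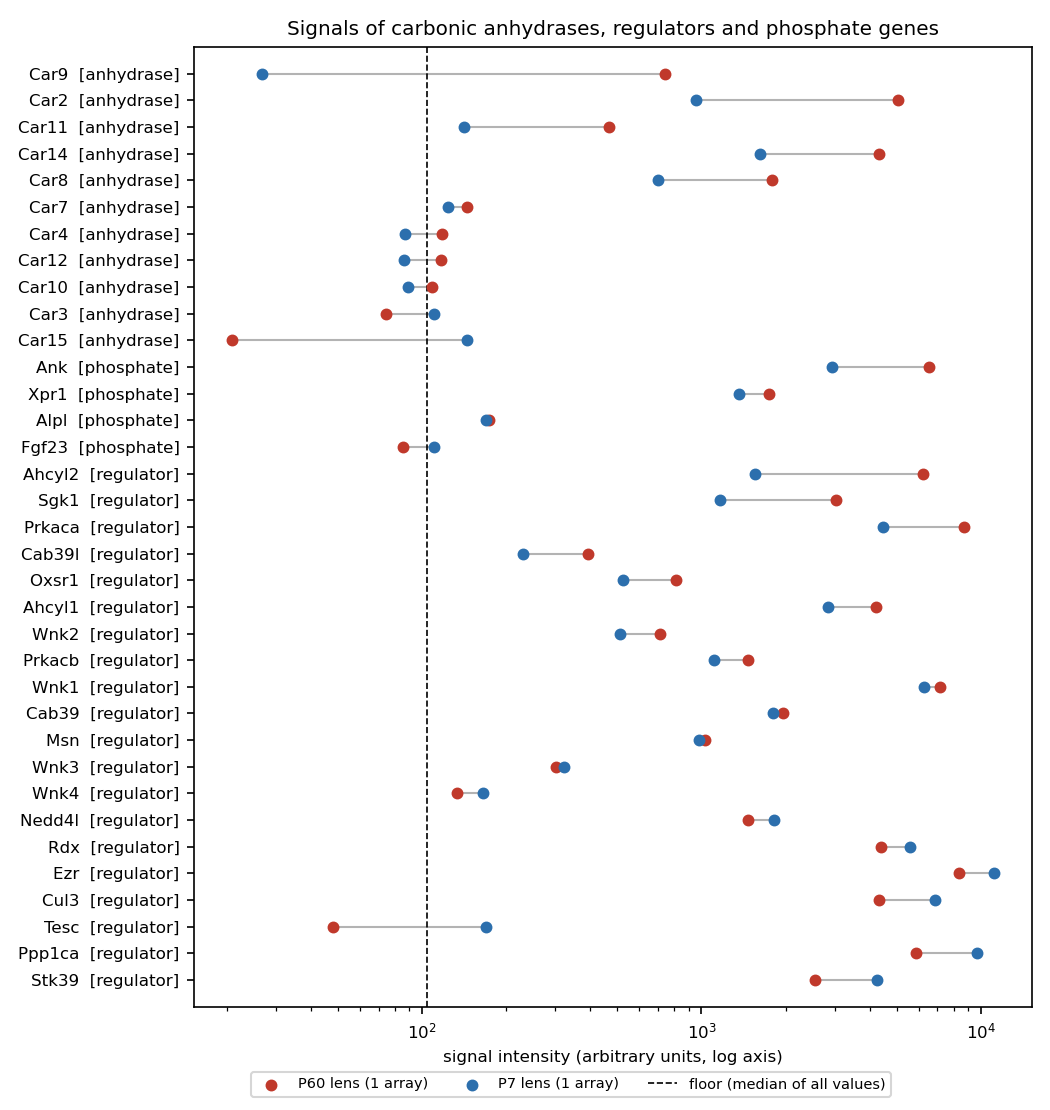
Signal intensity (arbitrary units, log axis) of the measured carbonic anhydrases, regulators of the carriers and phosphate genes, with 1 point for the P60 array and 1 for the P7 array; the dashed line is the floor of 103.9. Car2 reads 5035 at P60 and 960 at P7, and Stk39 reads 2548 at P60 and 4239 at P7.

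Markers of other cell types also differed between the pools, and their part in the values above was not tested. Of all measured genes 11.5% were higher and 9.44% lower by 2-fold or more. Of 11 measured vascular endothelial markers 7 passed 2-fold downward at P60 and none upward, with a summed signal of 1280 at P60 and 4984 at P7. Neuronal markers were lower in 3 of 6, summing to 602 at P60 and 2669 at P7, and Snap25 and Tubb3 were under the floor at P60. Of 7 measured markers of pigment epithelium and ciliary body 3 were lower and 1, Ttr, higher, with sums of 2348 at P60 and 3499 at P7. Pericyte markers split, with 1 of 5 higher and 2 lower, summing to 6166 at P60 and 11017 at P7. Among them Rgs5 had 104 at P60 and 8935 at P7, and Pdgfrb 5451 at P60 and 561 at P7. Photoreceptor markers split too, with 1 of 7 higher and 2 lower, summing to 2288 at P60 and 3249 at P7. None of 3 measured macrophage markers passed 2-fold, and of 3 measured erythroid markers 1 was lower. Of 5 lens epithelial markers, 3 were higher on their brightest probe set (Cdh1, Gja1 and Pdgfra) and Foxe3 was lower. The sums were 52126 at P60 and 24112 at P7, of which Gja1 alone gave 29700 at P60 and 12531 at P7. Other probe sets had log2 ratios from -0.37 to 2.72 for Gja1, 0.29 for Pdgfra and from -0.78 to -0.17 for Pax6. Of 5 measured corneal markers 1 was higher, Col8a2 (788 at P60, 117 at P7), the keratin gene Krt12 stayed under the floor at both ages, and the sums were 1341 at P60 and 719 at P7. The 5′ over 3′ signal of control transcripts, which falls when RNA or cDNA is broken or cut short, was lower at P60 for beta-actin (0.606 at P60, 0.785 at P7), Gapdh (1.29 at P60, 1.39 at P7) and the dap spike-in (0.0439 at P60, 0.158 at P7).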

How the data were processed

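Each probe set has 1 deposited intensity per array, on a linear scale, and MAS5 is the software named per the submitters' processing notes. No source used here gives its version, scaling settings or detection calls. Without the lowest and highest 2% of the 45101 probe sets, the mean was 500.0 on both arrays.

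Gene names came from the array's annotation table: 34958 had 1 symbol, 932 several and 9211 none. Only those with 1 symbol named a gene. Ratios were computed in Python 3.11.15 with pandas 2.3.3, and the calculation was tested on simulated data. With 1 array per age there is no test, and precision is limited by having so few arrays. The members, gene lists and settings were chosen with earlier results of these data known. Every measured member is named; of the other lists, the 2 highest, the 2 lowest and each gene past 2-fold. The exceptions, named after their values were seen, are Ahcyl1, Oxsr1, Wnk1, Cul3, Rdx, Ezr, Cab39l, Cab39 and the marker genes. Alternatives changed the floor, the filter, the probe set, the normalization and the fold.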

Additional observations from a re-analysis of the deposited data

How the results depend on the processing

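No paired analysis was possible because each age has 1 array. The count of 9 higher members became 4 with a floor of 200 (18.2%, all genes 11.3%) and 3 at 3-fold (8.33%, all genes 4.23%). It was between 7 and 13 under the other alternatives, the 13 at 1.5-fold (36.1%, all genes 22.7%). The count of 2 lower members became 5 with a floor of 50 (10.9%, all genes 13%). It became 4 at 1.5-fold (11.1%, all genes 20.1%), and 3 with 32 added to each signal in place of the floor (8.33%, all genes 12.8%). It was 1 with the dimmest measured probe set (2.78%, all genes 10.4%) and 1 after quantile normalization (2.86%, all genes 9.37%). It was 0 both at 3-fold (all genes 3.11%) and with the mean over probe sets (all genes 8.23%). A higher floor leaves fewer genes measured, 22 of the members at 200. The median of the members lay between 0 and 0.30. Slc26a4, Slc12a2 and Slc12a9 stayed past 2-fold under all 11 alternatives that keep that limit. For Slc26a4 and Slc12a9, with 1 probe set above the floor each, the changes of probe set could not alter the ratio. Dropping the filter could not alter the ratio of any measured member. Slc26a7, Slc4a3 and Slc4a5 lost it with a floor of 200 only, where their log2 ratios were 0.65, 0.54 and 0.48. Slc4a4 and Slc20a2 lost it with the dimmest probe set and with the mean, Slc13a5 with these and the floor of 200, and Slc12a4 and Slc9a3r2 under 4 alternatives each. Of 375 single ratios recomputed, 25 moved by more than 0.58, the SD between probe sets, and no called ratio changed sign. Many of the 375 could not move, for the reasons just given. Probe sets on the other side of 0, of Slc4a4 (-0.28) and Slc9a3r2 (0.15 and 0.31), were never used alone. The lack of sign changes therefore does not cover them. Signals near the floor limit 13 members to bounds.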

Other observations

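Probe sets of the same gene disagreed for several partners of the carriers. Ezr, which encodes ezrin, the actin linker that binds NHERF1, had a log2 ratio of -0.42 on its brightest probe set and 2.02 on the other. Cab39l, a scaffold of the kinases SPAK and OSR1, had 0.77 and -1.12, and its relative Cab39 had 0.11 and -1.20. For these genes the direction depends on the probe set, and the cause was not tested.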
